A study of Mus musculus with 4 samples.

Results

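The WFDC genes encode small secreted proteins with a whey acidic protein (WAP) domain, and 10 of them, *Wfdc2*, *Wfdc3*, *Wfdc6a*, *Wfdc8*, *Wfdc9*, *Wfdc10*, *Wfdc13*, *Wfdc15a*, *Wfdc15b* and *Wfdc16*, were followed here through every cell type and library of a single-cell RNA-Seq survey of the mouse epididymis and vas deferens. They were chosen by name, with earlier results of these data known, and all 10 are among the 16892 genes of the count table. Other genes with a WAP domain, among them *Slpi*, *Wfdc1* and *Wfdc17*, are outside this list and are described further below. Tissue came from 4 male FVB/NJ mice of 10 to 12 weeks, none of them treated or genetically modified, whose 8 epididymides were cut into caput, corpus, cauda and vas deferens. The 8 pieces of a region were pooled, washed free of visible sperm, dissociated and made into a single 10x library that reads 3′ ends. Each region is therefore 1 library of pooled animals without replicates, so regions could not be tested against each other. The libraries held 1433 cells (caput), 2325 cells (corpus), 1616 cells (cauda) and 3506 cells (vas deferens), with 4408989, 6602962, 4882822 and 10744928 unique molecular identifiers (UMIs).

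Levels are given as UMIs of a gene summed over the cells of a group per 1000000 UMIs of that group (UPM), followed by a 95% interval that covers counting error only. Because 3′ tags count molecules rather than fragments, levels of different genes on this scale do not depend on transcript length. Of the 8880 cells, 3956 were labeled principal cells, and their median depth was 844 UMIs for the caput, 658 for the corpus, 889 for the cauda and 1286.5 for the vas deferens. All 8 principal cell markers that were examined, all 5 clear, all 4 basal, all 4 muscle, all 4 stromal and all 4 endothelial markers had their highest level in the type of that name. Of 5 immune markers, 4 did so, and *Cd52*, the exception, reached 46644 UPM in principal cells of the cauda. The sperm markers *Prm1* and *Prm2* summed to 0.627 UPM in principal cells. A total of 43 cell barcodes occurred in more than 1 library, in 86 cells (0.968%).

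Principal cells are the tall secretory cells of the epididymal duct, and much of what they release into the lumen binds to or surrounds the maturing sperm. WFDC proteins fold around 4 disulfide bonds made by 8 cysteines. The best known members, such as the secretory leukocyte protease inhibitor encoded by *Slpi*, block serine proteases, and several kill bacteria, while many others have no known target. *Wfdc2* encodes the protein called HE4, first found in the human epididymis and used as a tumor marker. *Wfdc15b* encodes a protein with a single WAP domain, also called SWAM1, for which antibacterial activity has been described.

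The coding sequence of the WAP core is shown here for *Wfdc2*, *Wfdc15a* and *Wfdc15b*. For *Wfdc9*, *Wfdc10*, *Wfdc13* and *Wfdc16* a stretch with 8 cysteine codons in the same arrangement is shown. These genes differ widely around a shared frame of cysteines. Sequences are from GENCODE M21 transcripts (GRCm38), 5′ to 3′ on the coding strand. Each runs from the first to the last of the 8 cysteine codons of a core or stretch and lies within 1 exon, and capitals mark the cysteine codons.
*Wfdc10*, chr2:164657089-164657193 (plus strand): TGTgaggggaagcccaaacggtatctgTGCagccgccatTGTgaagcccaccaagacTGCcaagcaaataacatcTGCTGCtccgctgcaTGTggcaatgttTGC
*Wfdc9*, chr2:164650496-164650603 (minus strand): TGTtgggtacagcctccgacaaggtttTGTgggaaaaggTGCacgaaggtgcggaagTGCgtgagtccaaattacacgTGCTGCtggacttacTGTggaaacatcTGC
*Wfdc13*, chr2:164686856-164686954 (plus strand): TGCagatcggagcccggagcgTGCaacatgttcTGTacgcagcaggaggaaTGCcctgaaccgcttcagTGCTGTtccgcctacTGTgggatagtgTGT
*Wfdc16*, chr2:164635867-164635971 (minus strand): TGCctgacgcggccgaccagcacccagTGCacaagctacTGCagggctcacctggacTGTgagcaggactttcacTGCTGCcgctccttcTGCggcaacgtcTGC
*Wfdc15b*, chr2:164215141-164215251 (minus strand): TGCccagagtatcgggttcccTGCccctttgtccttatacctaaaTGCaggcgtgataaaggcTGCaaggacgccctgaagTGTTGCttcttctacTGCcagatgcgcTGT
*Wfdc15a*, chr2:164199686-164199796 (minus strand): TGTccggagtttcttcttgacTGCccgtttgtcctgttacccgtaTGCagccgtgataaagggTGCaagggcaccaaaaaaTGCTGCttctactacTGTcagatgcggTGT
*Wfdc2*, first core, chr2:164563334-164563438 (plus strand): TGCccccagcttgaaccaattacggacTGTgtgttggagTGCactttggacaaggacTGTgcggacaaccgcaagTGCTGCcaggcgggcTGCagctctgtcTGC
*Wfdc2*, second core, chr2:164565806-164565919 (plus strand): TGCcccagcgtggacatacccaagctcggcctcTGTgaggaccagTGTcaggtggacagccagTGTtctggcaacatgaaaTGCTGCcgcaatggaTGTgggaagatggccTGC

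In all of these stretches the fifth and sixth cysteine codons are adjacent. The strict WAP-type four-disulfide core signature of the PROSITE collection matched 5 of the 10 genes, with 2 cores each in *Wfdc2*, *Wfdc3* and *Wfdc8* and 1 each in *Wfdc15a* and *Wfdc15b*. *Wfdc6a*, *Wfdc9*, *Wfdc10*, *Wfdc13* and *Wfdc16* had no match but each held 8 cysteine codons in the same arrangement, 4 before the adjacent pair and 2 after it. Coding lengths ran from 240 bases in *Wfdc15a* and *Wfdc15b* to 1278 bases in *Wfdc8*.

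All 10 genes lie on chromosome 2 within 547 kb. *Wfdc15a* (chr2:164198863-164200130) and *Wfdc15b* (chr2:164214454-164221660) sit together at one end, and a gap of 341 kb with 15 annotated coding genes separates them from the others. Those follow within 184 kb in the order *Wfdc2* (chr2:164562413-164568510), *Wfdc6a* (chr2:164579519-164585447), *Wfdc8* (chr2:164596458-164613626), *Wfdc16* (chr2:164634707-164638796), *Wfdc9* (chr2:164649631-164656583), *Wfdc10* (chr2:164656046-164657368), *Wfdc13* (chr2:164685107-164687706) and *Wfdc3* (chr2:164731180-164745931). Some positions limit how far counts can be assigned. *Wfdc9* and *Wfdc10* overlap on opposite strands, and whether the counting used the strand is not given in the sources used here. *Wfdc6a* shares an identical run of 326 bases at its 3′ end with *Wfdc6b*, a neighboring gene, and reads that fit several places were ignored, so that levels of *Wfdc6a* and *Wfdc6b* are uncertain. Between *Wfdc15a* and *Wfdc15b* the longest identical run in the last 400 bases was 12 bases.

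In principal cells the 10 genes together took 0.812% of all UMIs in the caput (0.799 to 0.826, Clopper-Pearson interval), 1.69% in the corpus (1.67 to 1.71), 3.72% in the cauda (3.70 to 3.75) and 0.291% in the vas deferens (0.286 to 0.296). Most of this came from *Wfdc10* and *Wfdc15b*, which held 93.6% of the WFDC UMIs of the caput, 78.5% of those of the corpus, 94.3% for the cauda and 95.4% for the vas deferens. Over single cells the share was broad, with a median of 3.26% and a maximum of 17.1% in the cauda.

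*Wfdc10* was the most abundant member in the caput, corpus and cauda. Its level was 7337 UPM in the caput (7209.9 to 7466, 12646 UMIs), 9662 UPM in the corpus (9501 to 9826, 13709 UMIs), 23037 UPM in the cauda (22812 to 23264, 40078 UMIs) and 637 UPM in the vas deferens (614 to 660.1, 2982 UMIs). It ranked 10 among all genes in caput principal cells, 9 in the corpus and 4 in the cauda. The cauda level was 2.38 times that of the corpus (2.34 to 2.43), and the caput level was 11.5 times that of the vas deferens (11.1 to 12.0). The latter ratio depended on cells annotated to subclusters that lie mostly in other libraries. Without such cells the caput had 7191 UPM and the vas deferens 166 UPM.

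*Wfdc15b* had a different profile, low in the caput and retained in the vas deferens. It stood at 266 UPM in the caput (243 to 292, 459 UMIs), 3568 UPM in the corpus (3470.2 to 3667, 5062 UMIs), 12087 UPM in the cauda (11924 to 12251, 21027 UMIs) and 2138 UPM in the vas deferens (2096 to 2180, 10011 UMIs). In the vas deferens it was the leading WFDC gene. The number of *Wfdc10* UMIs per *Wfdc15b* UMI accordingly went from 27.6 (caput) to 2.71 (corpus), 1.91 (cauda) and 0.298 (vas deferens). The vas deferens value was lower still without cells annotated to subclusters that lie mostly in other libraries, with 731 *Wfdc10* UMIs beside 7473 of *Wfdc15b*.

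*Wfdc9*, whose gene overlaps that of *Wfdc10*, was found at 215 UPM in the caput (194 to 238, 371 UMIs), 227 UPM in the corpus (203 to 253, 322 UMIs), 843 UPM in the cauda (800.1 to 887, 1466 UMIs) and 81.4 UPM in the vas deferens (73.4 to 90.0, 381 UMIs). The cauda was highest, at 3.71 times the corpus (3.29 to 4.20), while corpus and caput did not differ beyond counting error (ratio 1.05, 0.905 to 1.23). That likeness rested on 88 caput cells annotated to subclusters that lie mostly in other libraries, which held 205 of the 371 UMIs. Without such cells the caput stood at 109 UPM (93.2 to 127) and the corpus at 2.09 times that level (1.72 to 2.53). *Wfdc6a* rose along the epididymis from 55.1 UPM in the caput (44.6 to 67.4, 95 UMIs) to 186 UPM in the corpus (164 to 209.9, 264 UMIs) and 269.6 UPM in the cauda (246 to 295, 469 UMIs), and had 8.12 UPM in the vas deferens (5.74 to 11.1, 38 UMIs).

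A second set of members had its highest level in the corpus. *Wfdc13* showed the sharpest restriction, with 37.7 UPM in the caput (29.1 to 48.1, 65 UMIs), 2177 UPM in the corpus (2101 to 2255, 3089 UMIs) and 203 UPM in the cauda (182 to 225, 353 UMIs). No *Wfdc13* UMI was found among the 4682368 UMIs of vas deferens principal cells, which allows up to 0.641 UPM. The same 88 caput cells held 59 of the 65 *Wfdc13* UMIs, and the other 648 had 3.95 UPM (1.45 to 8.59). *Wfdc16* was scarce in the caput at 8.70 UPM (4.87 to 14.4, 15 UMIs), reached 755 UPM in the corpus (710.3 to 801, 1071 UMIs) and 689 UPM in the cauda (651 to 729, 1199 UMIs), and fell to 34.2 UPM in the vas deferens (29.1 to 39.9, 160 UMIs). Its corpus and cauda levels were almost the same, with a ratio of 1.10 (1.01 to 1.19).

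*Wfdc8*, whose product has several WAP domains, was spread over the epididymis at 109.7 UPM in the caput (94.6 to 126, 189 UMIs), 164 UPM in the corpus (144 to 187, 233 UMIs) and 92.5 UPM in the cauda (78.8 to 108, 161 UMIs). In the vas deferens it had 4.91 UPM (3.11 to 7.37, 23 UMIs), and caput and cauda did not differ beyond counting error (ratio 1.18, 0.955 to 1.47). Without the cells of subclusters lying mostly in other libraries the order of these turned, with 75.6 UPM in the caput (62.4 to 90.8) and 93.9 UPM in the cauda (79.8 to 109.8). In principal cells *Wfdc2* was higher in the caput and corpus than beyond them, with 73.1 UPM in the caput (60.9 to 87.0, 126 UMIs) and 112 UPM in the corpus (95.3 to 131, 159 UMIs), against 10.3 UPM in the cauda (6.13 to 16.4, 18 UMIs) and 1.92 UPM in the vas deferens (0.879 to 3.65, 9 UMIs). The remaining genes were scarce. *Wfdc3* ranged from 0 UMIs in the corpus to 21.5 UPM in the caput (37 UMIs), and *Wfdc15a* from 0 UMIs in the caput to 11.3 UPM in the corpus (16 UMIs).

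**Figure D1:**
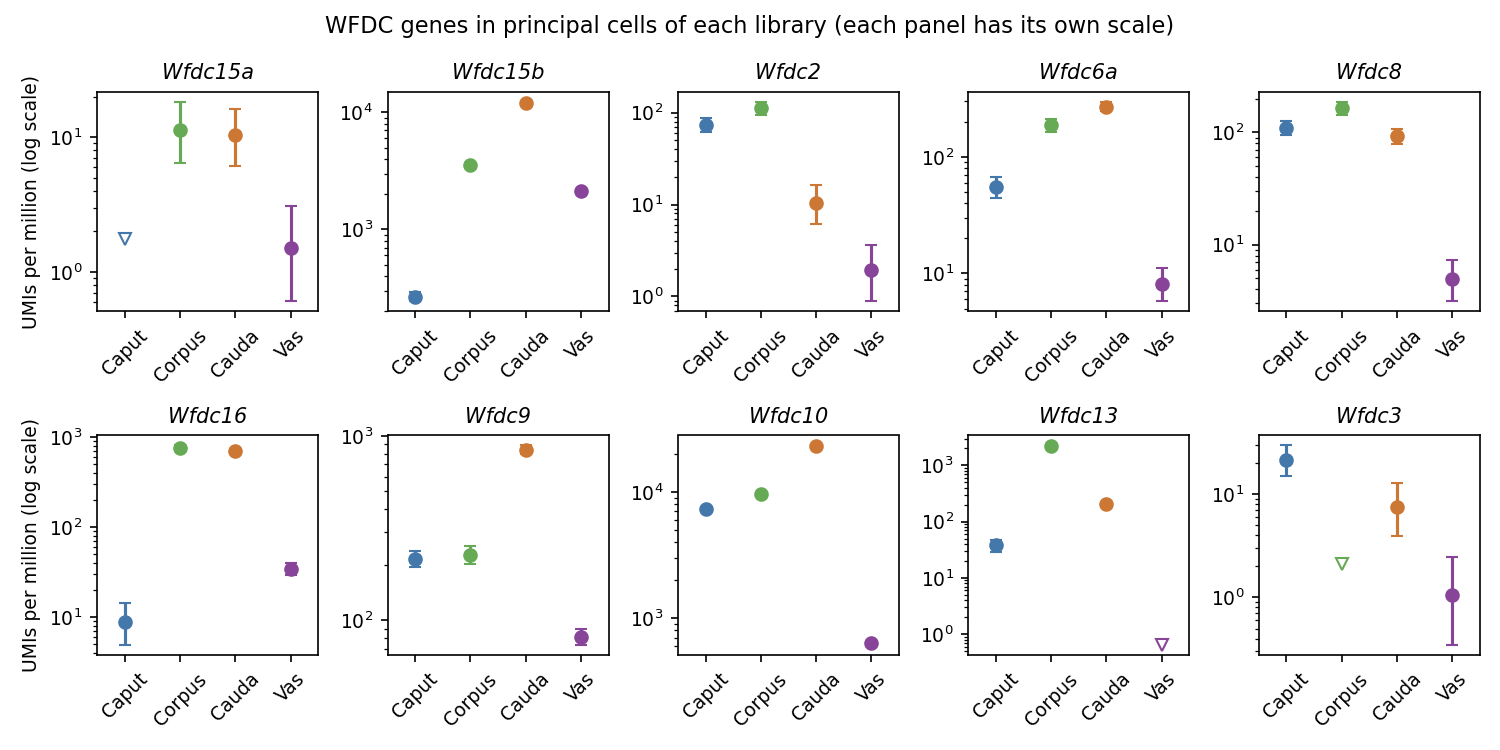
Level of each WFDC gene in principal cells of the 4 libraries, in UPM on a log axis that differs between panels. Points are single libraries, bars are 95% Poisson intervals for counting error, and open triangles mark the limit set by 3 UMIs where a gene had none. *Wfdc10*, *Wfdc15b*, *Wfdc9* and *Wfdc6a* were highest in the cauda, and *Wfdc13*, at 2177 UPM, stood out in the corpus.

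To set these profiles beside all genes, each gene was asked whether its highest library had at least 20 UMIs in principal cells and 4 times or more the level of each of the other libraries. Of 9122 genes that could be asked, 603 met this rule (6.61%), and 133 met it in the corpus (1.46%). Of the 9 WFDC genes that could be asked, all but *Wfdc15a*, 1 met it: *Wfdc13*, at 10.7 times the cauda (9.61 to 12.0). With the fold set aside, 4 of the 9 were highest in the cauda (*Wfdc6a*, *Wfdc9*, *Wfdc10* and *Wfdc15b*), as were 10.2% of all genes asked. Another 4 were highest in the corpus (*Wfdc2*, *Wfdc8*, *Wfdc13* and *Wfdc16*), as were 31% of all genes, and 1 in the caput (*Wfdc3*), as were 20.2%. The median ratio of the highest library to the next was 2.38 for the 9 genes and 1.35 for all. When the 50 most abundant genes of principal cells were left out of the totals, *Wfdc9* and *Wfdc15b* passed the rule as well and *Wfdc16* was highest in the cauda. The share of all genes passing with these totals was not computed. With means over cells *Wfdc8* was almost level between caput and corpus (log2 of corpus over caput -0.0086).

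Within principal cells, the subclusters given by the study's own annotation resolve these profiles further. They are numbered 1 to 15 from the caput to the vas deferens, and subclusters 1 to 3 held caput cells, 4 to 7 mostly corpus cells, 8 to 11 mostly cauda cells and 12 to 15 vas deferens cells. Since the subclusters were built from the same counts, differences between them are descriptions. *Wfdc10* peaked in principal 10 at 31748 UPM (31163 to 32341), followed by principal 8 at 25547 UPM (25207 to 25890), and it ranked 4 among all genes in both. Its level did not change smoothly, since principal 9, also of the cauda, had 9664 UPM and principal 3, of the caput, had 14674 UPM. In principal 12, 13, 14 and 15 it was at 122, 380.0, 27.4 and 52.3 UPM.

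*Wfdc15b* separated into 3 ranges. From principal 1 to 5 it lay between 249.96 and 442 UPM, from principal 6 to 11 between 4538 and 14026 UPM, and from principal 12 to 15 between 1468 and 1908 UPM. Its peak was in principal 8 (13775 to 14281 UPM), 1.18 times principal 9 (1.14 to 1.22). *Wfdc16* had its step at the same place, from 25 UPM or less in principal 1 to 5 to between 406 and 1177 UPM in principal 6 to 11, with its highest level in principal 7 (1095 to 1264 UPM).

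*Wfdc13* climbed from 235 UPM in principal 4 to 619 in principal 5, 1848 in principal 6 and 3199.6 in principal 7, then dropped to 332 UPM in principal 8. Within principal 8, however, the 22 corpus cells had 4079 UPM (2964 to 5476) and the 486 cauda cells 289 UPM (254 to 329). Within principal 7, the 346 corpus cells had 3332 UPM (3187 to 3481) and the 18 cauda cells 1771 UPM (1358 to 2270). Each of the steps from principal 7 to 6 and from 6 to 5 was larger than counting error, with ratios of 1.73 (1.59 to 1.88) and 2.99 (2.61 to 3.42). *Wfdc8* had its highest level in principal 5 at 454 UPM (396 to 518), 1.76 times principal 3 (1.26 to 2.495). *Wfdc9* was highest in principal 9 at 1181 UPM (1076 to 1294), where *Wfdc10* was lower than in any other cauda subcluster. *Wfdc6a* peaked in principal 10 at 379.5 UPM (318 to 449.5), which did not differ beyond counting error from principal 6 (ratio 1.16, 0.9101 to 1.48), and *Wfdc2* in principal 6 at 183 UPM (145 to 229).

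**Figure D2:**
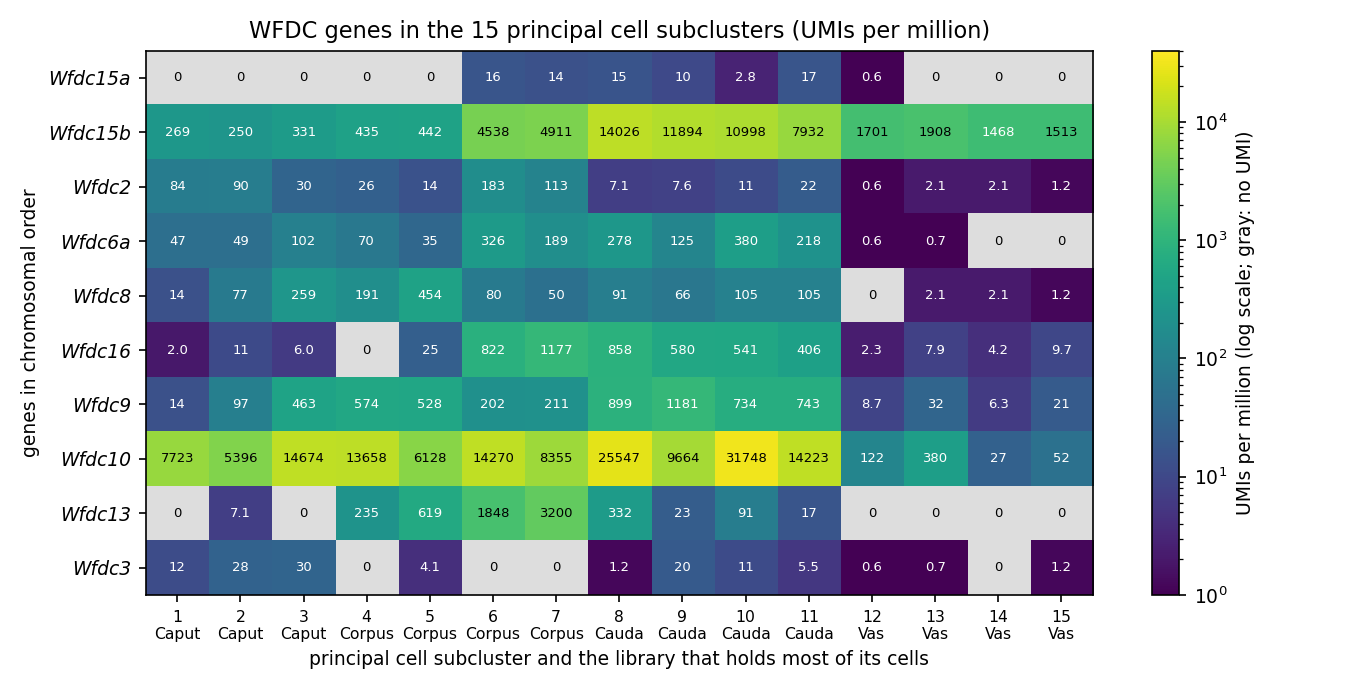
Level of the 10 WFDC genes in the 15 principal cell subclusters, in UPM as printed in each square and by color on a log scale, with genes in chromosomal order and gray squares where no UMI was found. Some neighboring genes have different leading subclusters: *Wfdc16* leads in principal 7, *Wfdc9* in principal 9, *Wfdc10* in principal 10 and *Wfdc13* in principal 7. *Wfdc6a* leads in principal 10, but not beyond counting error over principal 6 (ratio 1.16, 0.91 to 1.48), where *Wfdc2* leads.

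The share of UMIs taken by the whole family was highest in principal 10 (4.46%, 4.39 to 4.53) and principal 8 (4.21%, 4.16 to 4.25), and lowest in principal 14 (0.151%, 0.140 to 0.163). What it was made of changed along the duct. *Wfdc10* and *Wfdc15b* together held 97.9% of it in principal 1 and 72.8% in principal 7, where *Wfdc13* and *Wfdc16* made up most of the rest. There were 44.4 *Wfdc10* UMIs for each *Wfdc15b* UMI in principal 3 (33.97 to 59.1) and 0.0187 in principal 14 (0.00988 to 0.0321).

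**Figure D3:**
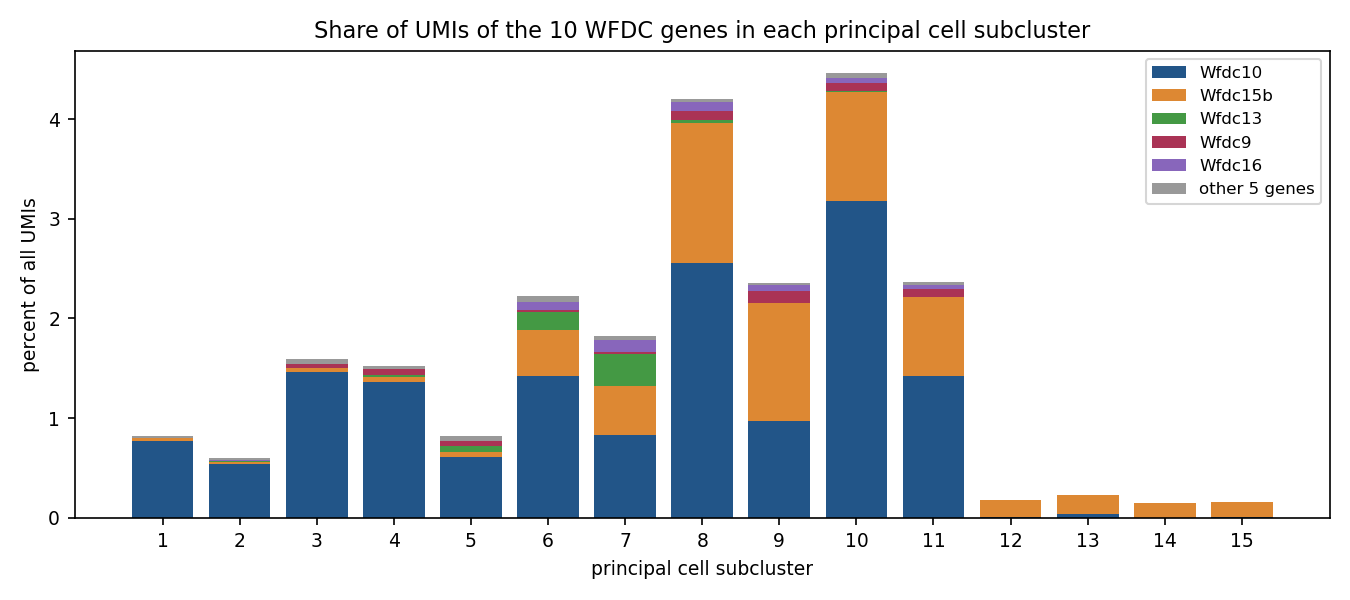
Percent of all UMIs of each principal cell subcluster that came from the 10 WFDC genes, stacked by gene. *Wfdc10* fills most of the bars of principal 1 to 5, *Wfdc15b* joins it from principal 6 on and fills most of the bars of principal 12 to 15, and the tallest bar, principal 10, reaches 4.46%.

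The RefSeq gene of *Wfdc9* (chr2:164649625-164657343) spans most of *Wfdc10*, and the counts of both were compared for this reason. There were 563 *Wfdc10* UMIs per *Wfdc9* UMI in principal 1 (273 to 1401), 70.7 in principal 6 (57.1 to 88.5), 28.4 in principal 8 (26.4 to 30.6) and 8.18 in principal 9 (7.43 to 9.03). In principal 1, *Wfdc9* had 7 UMIs beside 3940 of *Wfdc10*, the fewest per *Wfdc10* UMI of all 15 subclusters. Whether any reads were shared between the genes was not tested.

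The vas deferens library held 1360 principal cells, of which 1209 belonged to principal 12 to 15 and 151 to subclusters 7 to 11 that lie mostly in other libraries. These 151 cells carried 75.5% of the *Wfdc10* UMIs of vas deferens principal cells, 79.8% of those of *Wfdc9* and 85.6% of those of *Wfdc16*, but 25.4% of those of *Wfdc15b*. They also held 37 of the 38 *Wfdc6a* UMIs (97.4%) and 78.3% of those of *Wfdc8*. In the 1209 other cells *Wfdc15b* stood at 1696 UPM (1658 to 1735) and *Wfdc10* at 166 UPM (154 to 178). *Wfdc9* was at 17.5 UPM there (13.8 to 21.8) and *Wfdc16* at 5.22 UPM (3.31 to 7.83), beside 8.85 and 6.32 UPM in immune and endothelial cells of the same library. *Wfdc6a* had 0.227 UPM (1 UMI) and *Wfdc8* 1.13 UPM (5 UMIs). No UMI of *Wfdc13* was found in these cells, a limit of 0.681 UPM. Without the 151 cells, the share of the family in the vas deferens was 0.189% of UMIs in place of 0.291%.

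Several subclusters had cells in 2 libraries, which allowed a comparison within one annotated population. Principal 5 held 67 caput and 172 corpus cells. Among them, *Wfdc9* was at 1037 UPM in the caput cells and 229 UPM in the corpus cells, a ratio of corpus to caput of 0.221 (0.165 to 0.293), while *Wfdc13* was at 323 and 793 UPM, a ratio of 2.45 (1.83 to 3.32). The level of *Wfdc8* differed less, at 374 and 501 UPM (ratio 1.34, 1.0004 to 1.82). Principal 11 held 141 cauda and 100 vas deferens cells, and *Wfdc10* fell from 17887 to 5508 UPM (ratio of vas deferens to cauda 0.3079, 0.282 to 0.336) and *Wfdc15b* from 9113 to 5206 UPM (ratio 0.571, 0.520 to 0.627). In principal 9, with 100 cauda and 26 vas deferens cells, *Wfdc15b* was alike at 11754 and 12213 UPM (ratio 1.04, 0.978 to 1.10), and *Wfdc10* was at 10325 and 8418 UPM (ratio 0.815, 0.760 to 0.875). These intervals do not cover differences between dissections, which cannot be told apart from differences between regions here.

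Principal cells were the main source of transcripts of all members but *Wfdc2*. Of all UMIs of a gene in the survey, 96.0% of those of *Wfdc10*, 95.3% of *Wfdc9*, 93.9% of *Wfdc16*, 92.6% of *Wfdc13*, 91.4% of *Wfdc6a*, 89.2% of *Wfdc15b*, 87.2% of *Wfdc15a*, 84.3% of *Wfdc8* and 83.3% of *Wfdc3* lay in principal cells, but 37.5% of those of *Wfdc2*. Since the cell types were annotated from clusters of the same counts, differences between them are descriptions. Of the 10 genes, 9 had their highest level in principal cells, as did 18.6% of all 11352 genes that could be asked. A level in principal cells of 4 or more times that of each other cell type was found for 7 of the 10, against 251 of all genes (2.21%). When cells rather than UMIs were given equal weight, 4 of the 10 passed (*Wfdc9*, *Wfdc10*, *Wfdc15b* and *Wfdc16*). The share of all genes passing with this weighting was not computed. The ratios to the next type ran from 5.02 (*Wfdc8*) to 24.3 (*Wfdc10*), and *Wfdc3* (2.80, 0.9099 to 14.002) and *Wfdc15a* (3.58, 0.608 to 145) stayed under 4. The median ratio of the highest type to the next was 7.32 for the 10 genes and 1.39 for all.

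*Wfdc2* was the exception. Over all libraries pooled it was highest in basal cells, the cells at the base of the epithelium, at 68.1 UPM (61.7 to 74.9, 421 UMIs), then in clear cells, which acidify the lumen, at 48.6 UPM (37.9 to 61.3, 71 UMIs) and in principal cells at 32.6 UPM (29.1 to 36.4, 312 UMIs). Basal cells had 1.40 times the level of clear cells (1.09 to 1.83). No UMI of *Wfdc2* was found in endothelial cells and 1 in immune cells. The cell types also differed in their course along the duct. In basal cells the level was 34.7 UPM for the caput (25.7 to 45.9), 88.8 for the corpus (77.5 to 101), 101 for the cauda (82.2 to 124) and 41.4 for the vas deferens (31.3 to 53.8). Basal cells therefore had 0.475 of the principal cell level in the caput (0.334 to 0.666), 0.793 in the corpus (0.643 to 0.979) and 9.80 times that level in the cauda (5.89 to 17.2). Clear cells stayed between 33.8 UPM in the caput and 62.1 UPM in the corpus. Among the basal populations, main basal cells had 65.7 UPM (58.9 to 73.1), *Notch2* basal cells 60.9 UPM (44.2 to 81.7) and low-UMI basal cells 121 UPM (86.8 to 164).

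*Wfdc15b* was also found in basal cells, at 575 UPM (556 to 594, 3556 UMIs). By library the basal level was 532 UPM for the caput (495 to 572), 688 for the corpus (656 to 722), 874 for the cauda (816 to 935) and 201 for the vas deferens (178 to 227). In the caput basal cells exceeded principal cells, with a ratio of 2.00 (1.78 to 2.25), whereas in the cauda it was 7.23% of it (6.74 to 7.75). Immune and endothelial cells of the caput had 23.2 UPM (4 UMIs). Whether free RNA in the droplets accounts for part of the basal cell levels was not tested. The proportions of both leading genes differed too. In caput basal cells there were 0.346 *Wfdc10* UMIs per *Wfdc15b* UMI (0.2995 to 0.399), against 27.6 in caput principal cells (25.1 to 30.3) and 7 in caput immune and endothelial cells (2.45 to 27.5). In the corpus the same number was 0.740 in basal and 2.71 in principal cells. For the cauda it was 0.341 and 1.91, and for the vas deferens 0.173 and 0.298. The last value includes the 151 cells of subclusters 7 to 11. The 1209 cells of principal 12 to 15 held 731 *Wfdc10* beside 7473 *Wfdc15b* UMIs. That was fewer per *Wfdc15b* UMI than among vas deferens basal cells, with 47 beside 272. Immune and endothelial cells had 2.36 for the corpus (1.41 to 4.09) and 0.857 for the cauda (0.476 to 1.53). They had 0.231 for the vas deferens (0.0777 to 0.573), where alone the interval covers the basal value.

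**Figure D4:**
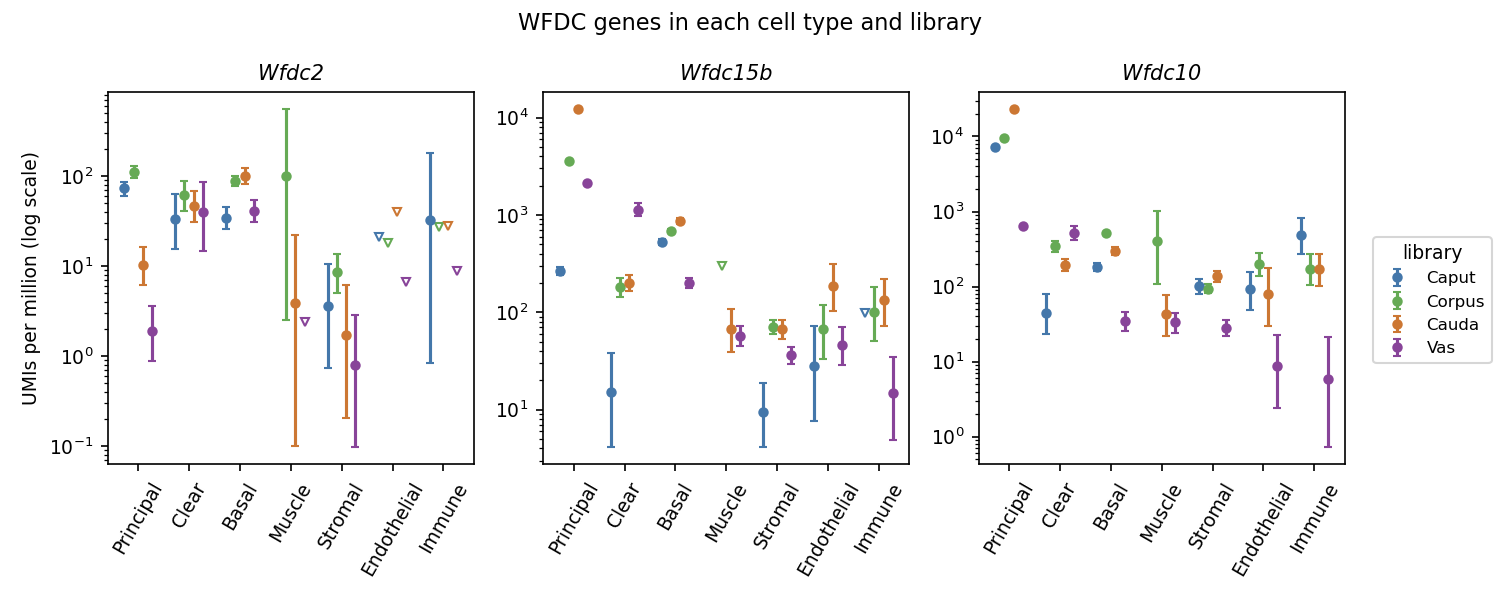
Level of *Wfdc2*, *Wfdc15b* and *Wfdc10* in each cell type and library, in UPM on log axes. Points are single libraries, bars are 95% Poisson intervals and open triangles mark the limit of 3 UMIs where a gene had none; types with fewer than 5 cells in a library are left out. *Wfdc10* is highest in principal cells of every library, but in the vas deferens only with the 151 cells of subclusters 7 to 11 included. The 1209 vas deferens cells of principal 12 to 15 had 166 UPM, below clear cells. *Wfdc2* is higher in basal than in principal cells in the cauda and vas deferens, and *Wfdc15b* in caput basal cells (532 UPM) exceeds caput principal cells (266 UPM).

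Levels outside the epithelium were low. For *Wfdc10*, immune and endothelial cells together had 2.22% of the principal cell level of the same library in the caput (1.47 to 3.20), 1.97% in the corpus (1.47 to 2.58), 0.577% in the cauda (0.369 to 0.858) and 1.19% in the vas deferens (0.437 to 2.60). The authors had already subtracted ambient RNA from each cell. The 11 immune cells of the caput had 490.2 UPM of *Wfdc10* (274 to 808, 15 UMIs). Within the epithelium, the 38 clear cells of the vas deferens had 1128 UPM of *Wfdc15b* (964 to 1312) and 521 UPM of *Wfdc10* (412 to 650). These were 52.8% and 81.8% of the levels of all principal cells of that library. The 1209 cells of principal 12 to 15 had 1696 UPM of *Wfdc15b* and 166 UPM of *Wfdc10* (154 to 178). Clear cells therefore exceeded these cells in *Wfdc10*. Whether principal cell RNA in the clear cell droplets accounts for part of the clear cell levels was not tested.

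The level of a group can come from few or many cells, and so cells with at least 1 UMI were counted after thinning each cell to 1000 UMIs and leaving out shallower ones. *Wfdc10* was found in all 99 cells of principal 10, all 92 of principal 9, all 45 of principal 3 and all 40 of principal 4, and in 84.5% of the 168 cells of principal 2 (78.2 to 89.6). *Wfdc15b* was in 98.4% of the 190 cells of principal 8 (95.5 to 99.7) and in 69.2% to 77.8% of cells of principal 12 to 15. *Wfdc13* was in 71.2% of the 139 cells of principal 6 (62.9 to 78.6) and 82.4% of the 119 cells of principal 7 (74.3 to 88.7), but in 8.42% of principal 8 (4.89 to 13.3). *Wfdc16* was in 54.6% of principal 7 cells (45.2 to 63.8) and *Wfdc9* in 51.5% of principal 10 cells (41.3 to 61.7). Without thinning, and with shallow cells counted too, the share for *Wfdc10* was 72.8% of 151 cells in principal 3 and 55.5% of 353 in principal 2, and that for *Wfdc15b* was 82.6% of 516 in principal 8. In the same count the shares were 54.0% of 365 cells for *Wfdc13* in principal 7 and 13.2% of 516 in principal 8, 31.8% of 365 for *Wfdc16* and 38.3% of 183 for *Wfdc9*.

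For comparison, shares were also taken in other cell types. Among immune cells, 5.06% of 158 had a *Wfdc10* UMI (2.21 to 9.73) and 3.16% a *Wfdc15b* UMI (1.04 to 7.23), and among 200 endothelial cells the shares were 3.00% (1.11 to 6.42) and 5.50% (2.78 to 9.63). Median depths were 2887 and 2590 UMIs before thinning. In the vas deferens alone, 0.948% of 211 immune and endothelial cells had a *Wfdc10* UMI (0.115 to 3.38), beside 3.14% of 159 cells of principal 15 (1.03 to 7.19) and 2.22% of 90 cells of principal 14 (0.270 to 7.80). These intervals overlap, whereas the level was 7.59 UPM in those immune and endothelial cells, 52.3 UPM in principal 15 (37.9 to 70.5) and 27.4 UPM in principal 14 (14.6 to 46.8). In basal cells 29.7% of 1155 had a *Wfdc15b* UMI (27.1 to 32.4), 13.4% a *Wfdc10* UMI (11.5 to 15.5) and 6.84% a *Wfdc2* UMI (5.45 to 8.45), while *Wfdc2* was in 0 of 158 immune and 0 of 200 endothelial cells, which allows up to 1.90% and 1.5% of cells with a UMI at this depth. A low gene is mostly missed at 1000 UMIs, and without thinning *Wfdc2* was in 21.03% of 1412 basal and 0.513% of 195 immune cells. At this depth a cell of principal 6 or 7 showed a median of 4 of the 10 genes, a cell of principal 8 to 11 showed 3, and a cell of principal 12 to 15 showed 1.

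**Figure D5:**
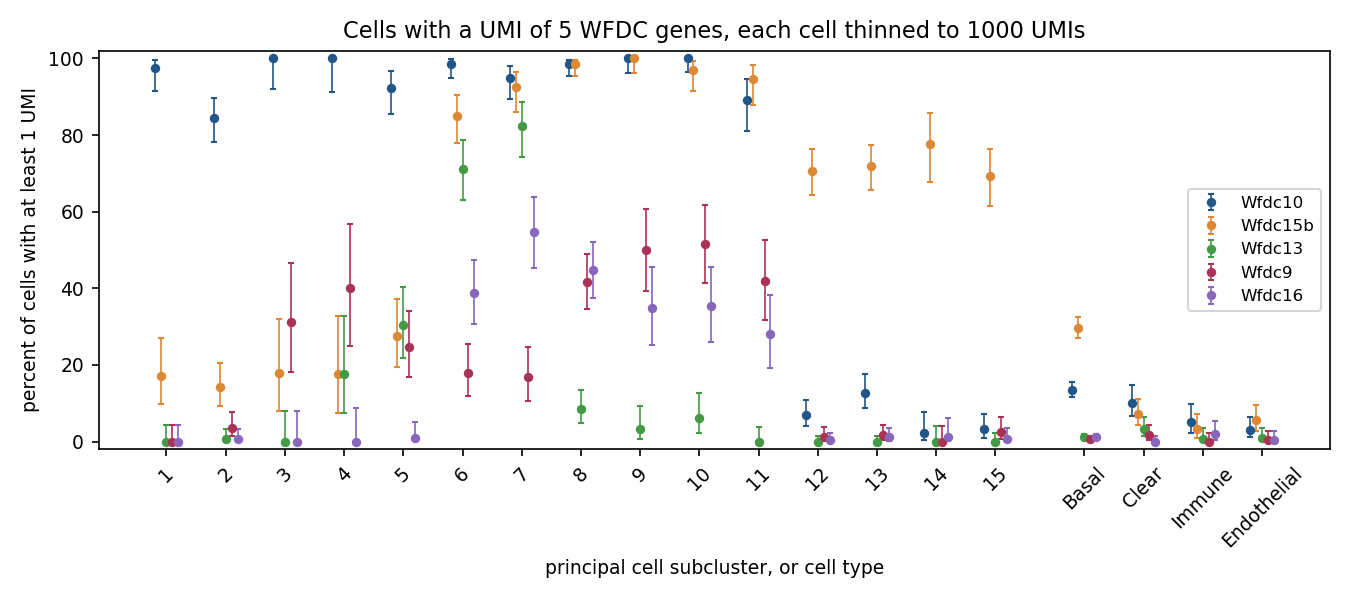
Percent of cells with at least 1 UMI of 5 WFDC genes after thinning each cell to 1000 UMIs, for the 15 principal cell subclusters and 4 other cell types, with 95% Clopper-Pearson intervals. *Wfdc10* is in most cells of principal 1 to 11 and few of principal 12 to 15, *Wfdc15b* is in most cells from principal 6 on, and *Wfdc13* stands out in principal 6 and 7.

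The genes whose log2 levels over the 15 subclusters were most like those of each member were looked up among 5249 genes with at least 200 UMIs in principal cells. The subclusters share libraries and depth, so the correlations are descriptions. *Wfdc10* was most like *Ptgds* (prostaglandin D2 synthase, Pearson r = 0.95), *Cad* (r = 0.95) and *Spink10* (a Kazal-type inhibitor, r = 0.95). *Wfdc15b* was most like *Ly6f* (r = 0.96), *Akr1c13* (r = 0.95) and *Sowahc* (r = 0.94). Between members, r was highest for *Wfdc6a* and *Wfdc10* (0.92), *Wfdc8* and *Wfdc9* (0.86), *Wfdc15b* and *Wfdc16* (0.85) and *Wfdc9* and *Wfdc10* (0.83), while it was 0.19 for *Wfdc15b* and *Wfdc10* and lowest, at -0.21, for *Wfdc15b* and *Wfdc2*. *Wfdc16* was most like the beta-defensin *Defb40* (r = 0.98), *Slc52a3* and *Akr1c19* (r = 0.96 each), and *Wfdc13* like *Pate2* (r = 0.95), the beta-defensin *Defb37* and *Plekha8* (r = 0.94 each). *Wfdc9* was most like *Defb10* (r = 0.93), *Wfdc6b* of the same locus (r = 0.92) and *Cpne5* (r = 0.91). *Wfdc6a* was most like *Ces5a*, *Prom2* (r = 0.98 each) and *Spink10* (r = 0.97), *Wfdc8* like *Enpp1*, *Lipg* (r = 0.94 each) and *Ido1* (r = 0.92), and *Wfdc2* like *Hexa* (r = 0.93), *Gstm6* (r = 0.91) and *Elovl6* (r = 0.90).

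Another 10 protease inhibitor genes, most of them between or beside the members on chromosome 2, were listed for comparison, of which 8 had enough UMIs. Of these, 6 passed the rule of 4 times each other cell type in principal cells (2.21% of all genes did), namely *Eppin*, *Wfdc6b*, *Spint3*, *Spint4*, *Spint5* and *Spinkl*. *Eppin*, whose product joins a WAP and a Kunitz domain and coats sperm, was spread over the epididymis like *Wfdc8*. Its highest level was in the caput, and that of *Wfdc8* in the corpus. *Eppin* had 445 UPM for the caput, 356 for the corpus, 252 for the cauda and 4.06 for the vas deferens. Among the Kunitz-type genes, *Spint4* and *Spint5* had 5788 and 3409 UPM in the corpus, and *Spint4* had 0.575 UPM in the cauda. Of the members on either side of this pair, *Wfdc13* was highest in the corpus and *Wfdc3* had 0 UMIs there. *Spint3* was at 1850.3 UPM in the cauda and 1135 UPM in the corpus. *Wfdc6b* had 252 UPM in the cauda and 50.0 UPM in the corpus, *Spinkl* 478 and 116 UPM, and *Wfdc11* at most 35.9 UPM. By the rule of 4 times every other library, 4 of the 8 passed, beside 6.61% of all genes, *Spint4* and *Spint5* in the corpus and *Wfdc6b* and *Spinkl* in the cauda. The other 2 listed genes, *Wfdc5* and *Wfdc12*, did not have enough UMIs.

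*Slpi* was a gene of basal cells, at 441 UPM (425 to 458), against 5.96 UPM in principal cells (4.51 to 7.72) and 85.9 UPM in immune cells (63.8 to 113). Among basal cells it had 186 UPM for the caput, 580.1 for the corpus, 868 for the cauda and 152 for the vas deferens. WFDC genes on other chromosomes belonged to other cell types: *Wfdc1* was highest in stromal cells (261 UPM, 248 to 273), *Wfdc17* in immune cells (1191 UPM, 1104 to 1283) and *Wfikkn2* in stromal cells (15.6 UPM, 12.7 to 18.9). *Wfdc18* and *Wfikkn1* had too few UMIs, and *Wfdc21* has no row in the table.

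A list of 21 serine proteases was set beside the inhibitors. Of these, 18 are in the table and 11 had at least 20 UMIs in the type where they were highest, and 0 of the 11 passed the rule of 4 times each other type in principal cells, which 2.21% of all genes passed, so that a count of 0 is close to the background. *Prss8* (prostasin) was shared by clear cells (83.5 UPM) and principal cells (81.9 UPM), *St14* (matriptase) was highest in clear cells (248 UPM) with 71.8 UPM in principal cells, and *Tmprss2* was at 39.7 and 26.3 UPM in the same types. *Plat* (tissue plasminogen activator) was highest in stromal cells (577 UPM), as was *Htra1* (144 UPM). *Prss23* had 371 UPM in endothelial and 351 UPM in muscle cells, with overlapping intervals, and 269 UPM in stromal cells. *Plau* (urokinase) was at 68.7 UPM in immune and 52.7 UPM in principal cells, *Elane* lay between 32.1 and 47.4 UPM in all types, and the kallikreins *Klk1b26* and *Klk1b27* reached 8.78 and 20.8 UPM in principal cells. *Prss12* had 5.02 UPM in principal cells, nearly all of it in the caput (47 of 48 UMIs). Within principal cells 10 could be asked about libraries, and 3 passed the rule, beside 6.61% of all genes: *Prss12* in the caput, *Htra1* in the corpus and *Klk1b26* in the cauda.

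Many genes of principal cells depend on androgen, and the androgen receptor binds paired copies of AGAACA. The promoters of RefSeq (GRCm38), 250 bases before to 50 bases after each start, were searched on both strands. Of the 10 genes, 9 had a promoter in the table, all but *Wfdc13*. These 9 genes had 12 promoters. The single hexamer occurred in 2 of the 12, those of *Wfdc15b* and *Wfdc3*, and in 19% of all 32851 promoters, and the whole androgen response element, with 3 bases between both copies, in 0 of the 12 and in 0.00913% of all. These letters are a description of this window and mark no site.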

How the data were processed

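Single-cell RNA-Seq was available for 4 pooled libraries, 1 per region. Per the labels and the study's methods, the authors aligned reads with HISAT2 2.0.4 to mm10 (GRCm38), counted UMIs on RefSeq genes with ESAT, ignoring reads with several possible origins, merged UMIs one base apart, and removed ambient RNA with a modified SoupX. The deposited values are whole UMI counts per gene and cell. Before ambient removal the cells had 350 to 14999 UMIs, and the removal took away 3.54% of UMIs. Cell types, populations and subclusters are those of the deposited annotation, with subclusters numbered as in the study by matching numbers of cells.

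From the counts, UMIs were summed over groups of cells. Intervals at 95% cover counting error only: exact Poisson intervals were used for levels, Clopper-Pearson intervals for shares, and an exact binomial interval conditional on the sum for ratios. A count of 0 was taken as up to 3 UMIs, and for shares as up to 3 cells. These limits lie below the upper ends of the 95% intervals. Rules needed at least 20 UMIs and 4-fold. Their code was tested on simulated data. For correlations, log2(UPM + 10) was used. Full values are given for members with at least 100 UMIs in principal cells, and the 3 most similar genes for each. Doublets (178 cells, 2.00%) were called from simulated doublets at an assumed rate of 0.8% per 1000 cells and kept. No p-value was computed, since each region has 1 library. The members, lists and rules were chosen with earlier results of these data known. Alternatives covered UMI and fold thresholds, shallow cells, doublets, denominators, means over cells and leaving out libraries. The bulk RNA-Seq was not analysed here. Scripts ran in Python 3.11.15 with pandas 2.3.3, scipy 1.17.1, matplotlib 3.10.9, numpy 2.4.6 and, for doublets, scikit-learn 1.9.0.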

Additional observations from a re-analysis of the deposited data

How the results depend on the processing

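The number of members highest in principal cells was 9, and 8 to 9 with each library left out (*Wfdc3* was lost without the caput). It was 8 with means over cells and with a minimum of 50 UMIs. The number at 4 times every other cell type was 7, and 6 to 7 with each library left out (*Wfdc15b* was lost without the cauda). It was 4 with means over cells (*Wfdc9*, *Wfdc10*, *Wfdc15b* and *Wfdc16*) and 4 at 8-fold (*Wfdc6a*, *Wfdc9*, *Wfdc10* and *Wfdc16*). The number restricted to a library was 1 (*Wfdc13*), but 5 at 2-fold (*Wfdc3*, *Wfdc9*, *Wfdc10*, *Wfdc13* and *Wfdc15b*) and 3 with the 50 most abundant genes, which include *Wfdc10* and *Wfdc15b*, out of the denominator. The share of all genes that passed was computed for the main rules only, so these other counts have no background beside them. The causes were not tested.

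The share of UMIs taken by the family in caput, corpus, cauda and vas deferens principal cells kept its order under all alternatives tried. In cells with at least 1000 UMIs these shares were 0.795%, 1.64%, 3.70% and 0.282%. As a mean over cells it was 0.896%, 1.81%, 3.82% and 0.361%. Without cells of subclusters lying mostly in another library it was 0.781%, 1.68%, 3.80% and 0.189%, and without called doublets 0.816%, 1.71%, 3.74% and 0.297%. Of 45 recomputed ratios of the highest library to the next, 29 stayed within their interval and 16 did not. The log2 ratio changed sign in 2 of the 45. These were *Wfdc8* with means over cells (caput and corpus almost level, -0.0086) and *Wfdc16* with the abundant genes left out (cauda above corpus). Of 20 recomputed shares of cells, 10 stayed within their interval. No paired analysis was possible because each region has 1 library. Depth limits *Wfdc3* and *Wfdc15a* throughout, and the pooling of animals leaves variation between them unmeasured.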
